A study of Oryzias latipes with 6 samples.

Results

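Tubulins and the enzymes that fold and modify them were examined in the testis of medaka (Oryzias latipes), a small laboratory fish. Members were the rows of the deposited expression table whose gene name is that of an alpha, beta, gamma, delta or epsilon tubulin, a tubulin tyrosine ligase-like enzyme (ttll), a cytosolic carboxypeptidase (agbl, agtpbp1), a folding cofactor (tbca to tbce), the acetyltransferase atat1 or a vasohibin. Rows named only by an identifier were taken where their description names an alpha, beta or gamma tubulin or gives such a gene name. This gave 42 of 24365 genes, 27 by gene name and 15 by description. They comprised 11 alpha and 8 beta tubulins, 1 gamma tubulin, the delta and epsilon tubulins (2), 8 ttll genes, 4 carboxypeptidase genes, atat1, 2 vasohibins and 5 folding cofactors.

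RNA sequencing compared testes of nphp4 mutant fish (nphp4-/-, 3 libraries) with testes of wild-type fish (3 libraries), with the testes of 2 fish combined in every library. The mutant is called a knockout of nphp4, which encodes a protein of the ciliary transition zone, and no strain, age or description of the lesion is given in the labels used here. The comparison asks which testis transcripts differ between the genotypes. Values are FPKM, in which the fragments of a gene are divided by its length and by a scaling total of its library. These totals are not the plain read totals but follow median-ratio size factors. Levels of different genes are thus compared per length.

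Microtubules are polymers of alpha and beta tubulin, and gamma tubulin starts their growth. In the testis they form the meiotic spindle, the manchette that shapes the spermatid nucleus, and the axoneme of the sperm tail. The tails of alpha and beta tubulin carry added glutamates, glycines or a terminal tyrosine, and alpha tubulin is acetylated on a lysine inside the tube. Ttll enzymes add amino acids, carboxypeptidases and vasohibins remove them, and in mice the loss of several of these enzymes disturbs sperm tails.

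The libraries held 13438879 to 16054354 reads assigned to genes. Testis markers were present: piwil1, a germ cell Argonaute protein, lay between 382 and 450 FPKM in mutant libraries and between 317 and 519 FPKM in wild-type libraries, and gsdf, a Sertoli cell factor, lay between 746 and 1078 FPKM in mutant libraries and between 910 and 1004 FPKM in wild-type libraries. Wild type 3 stood apart. It had a median correlation of 0.878 with the rest, and the remaining libraries had medians of 0.950 to 0.969. The summed level of its 5 matched exocrine pancreas genes was 16125 FPKM, against 249 to 2320 FPKM in the mutant libraries and 999 and 1222 FPKM in wild type 1 and 2. The sum of 5 matched smooth muscle genes was 974, 596 and 619 FPKM in mutant 1, 2 and 3. It was 280, 400 and 1278 FPKM in wild type 1, 2 and 3, so wild type 1 and 2 lay below every mutant library. Its part in differences taken without wild type 3 was not tested. The transcript of nphp4 itself was at 6.84, 7.0 and 10.9 FPKM in mutant 1, 2 and 3, against 17.1, 23.5 and 12.2 FPKM in wild type 1, 2 and 3. It was lower in every mutant library than in every wild-type library (log2 difference -0.99, SE 0.27, adjusted p = 0.436, limma; 2-sided exact permutation p = 0.1, the smallest that 3 against 3 libraries allow).

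No tubulin, modifying enzyme or folding cofactor passed the test between mutant and wild-type testis. Of the 42 genes, 35 reached a mean of 1 FPKM in either group and were tested, and 0 passed an adjusted p of 0.05 in limma, where 0.0592% of all 15203 tested genes passed (0.0329% higher and 0.0263% lower in mutant testis). With so few genes called, 0 of the 35 says nothing particular to these members. At an unadjusted p below 0.05 there were 2 of the 35 (5.71%), against 7.13% of all tested genes. limma-voom on the reads recovered from the table called 0.0% of all tested genes, so that 0 members called there says nothing particular to them. At an unadjusted p below 0.05 it had 0 of the 35 members, against 6.17% of all tested genes. The groups did not overlap in 2 of the 35 (5.71%), against 14.0% of all tested genes. One of these was higher in mutant testis, as in 7.55% of all tested genes, and the other lower, as in 6.45%. Their log2 differences (mutant minus wild type, of log2(FPKM + 1), which understates changes of low genes) ran from -0.70 to 0.44 around a median of 0.01, and the median of all tested genes was also 0.01. For 30 of the 35 the 95% interval of the difference lay within a log2 difference of 1 in either direction, and for 10 it lay within 0.5. The 5 genes with wider intervals were 3 alpha and 2 beta tubulins. In bulk tissue, fewer cells of a type and less RNA per cell cannot be told apart.

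**Figure D1:**
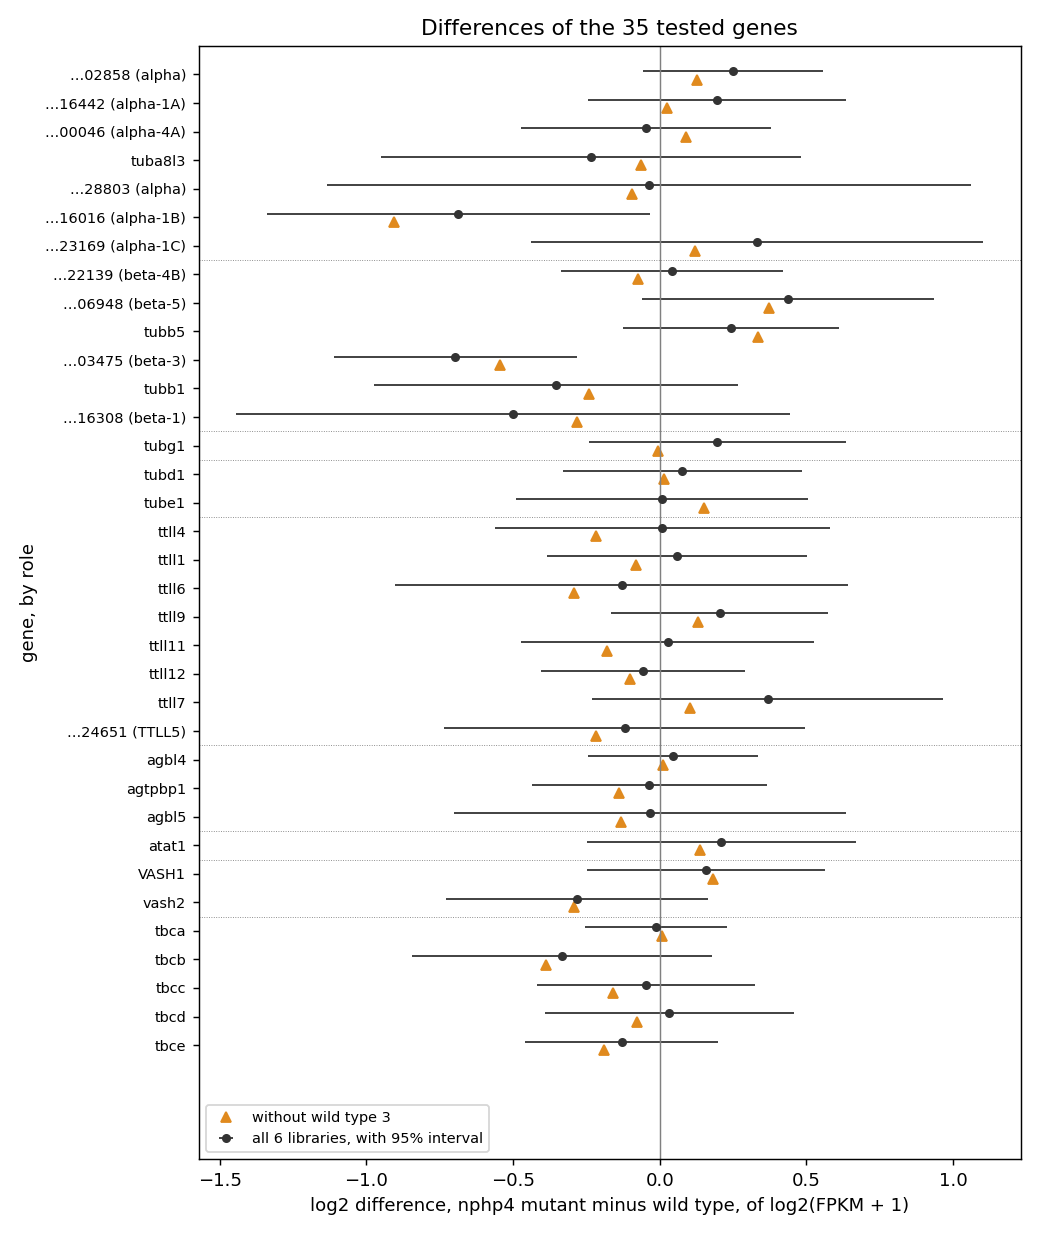
Log2 difference (x axis, mutant minus wild type, of log2(FPKM + 1)) of each of the 35 tested genes (rows, grouped by role; rows named by an identifier show its last digits and the best protein match). Black points and lines are the difference and its 95% interval from limma over all 6 libraries, and orange triangles are the difference without wild type 3; the intervals of ENSORLG00000003475 and ENSORLG00000016016 are the only ones in the plot that leave out 0.

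Alpha tubulin RNA came mostly from a few of the 11 genes. The most abundant was ENSORLG00000002858 (chromosome 15, 12556613 to 12560620), a match to the alpha tubulin of a salmon. It was at 385, 384 and 367 FPKM in mutant 1, 2 and 3, against 351, 342 and 269 FPKM in wild type 1, 2 and 3. All mutant libraries lay above all wild-type libraries, and the lowest value was that of wild type 3. The difference was 0.25 on the log2 scale (SE 0.13, adjusted p = 0.778, limma) and 0.13 without wild type 3. The gene shares 102 bases with gtf3c3 on the other strand. The second most abundant was ENSORLG00000016442 (chromosome 7, 25807112 to 25880164), a match to alpha-1A. It was at 199, 237 and 242 FPKM in mutant 1, 2 and 3, against 198, 248 and 155 FPKM in wild type 1, 2 and 3. The groups overlapped, and the log2 difference of 0.19 (SE 0.19, adjusted p = 0.864, limma) was 0.02 without wild type 3. jph2, a low gene on the other strand, lies across 42954 bases of it.

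The alpha-1B match ENSORLG00000016016 (chromosome 7, 23713879 to 23715280) was 1 of the 2 tested members with an unadjusted p below 0.05. Its level was 13.6, 7.66 and 9.77 FPKM in mutant 1, 2 and 3, against 23.0, 17.0 and 12.1 FPKM in wild type 1, 2 and 3. Mutant 1 lay above wild type 3, so the groups overlapped. The log2 difference was -0.69 (SE 0.28, unadjusted p = 0.0417, adjusted p = 0.679, limma). It was -0.91 without wild type 3 (adjusted p = 0.384, limma) and -0.47 without wild type 1 (adjusted p = 0.803, limma).

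A pair of alpha tubulin genes stands head to tail on chromosome 14, 41 bases apart on the same strand, and their levels across libraries did not run together. ENSORLG00000028803 (24700162 to 24705016) was at 27.4, 22.7 and 63.4 FPKM in mutant 1, 2 and 3, against 24.0, 55.3 and 32.2 FPKM in wild type 1, 2 and 3. ENSORLG00000023169 (24705058 to 24712052), a match to alpha-1C, was at 5.96, 12.7 and 5.63 FPKM in the mutant libraries, against 7.17, 6.61 and 4.09 FPKM in the wild-type libraries. Mutant 3 and wild type 2 were high in the first gene, and mutant 2 was high in the second. Their log2 differences were -0.04 (SE 0.46, adjusted p = 0.989, limma) and 0.33 (SE 0.33, adjusted p = 0.866, limma). The SE of ENSORLG00000028803 was the largest of the 35 tested genes.

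The alpha-4A match ENSORLG00000000046 was at 104 ± 18.7 FPKM in mutant testis and 108 ± 19.4 FPKM in wild-type testis (SD, n = 3 each). The gene named tuba8l3 was at 69.0, 73.3 and 46.3 FPKM in mutant 1, 2 and 3, against 88.7, 46.8 and 92.3 FPKM in wild type 1, 2 and 3. Here mutant 3 and wild type 2 were the lowest libraries, the reverse of ENSORLG00000028803. The log2 difference of tuba8l3 was -0.23 (SE 0.30, adjusted p = 0.893, limma). Summed over the 11 alpha genes, the level was 829 ± 5.13 FPKM in mutant testis and 766 ± 64.1 FPKM in wild-type testis (SD, n = 3 each). ENSORLG00000002858 made up 45.7 ± 1.13% of that sum in mutant libraries and 41.7 ± 3.07% in wild-type libraries, with overlap between the groups.

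**Figure D2:**
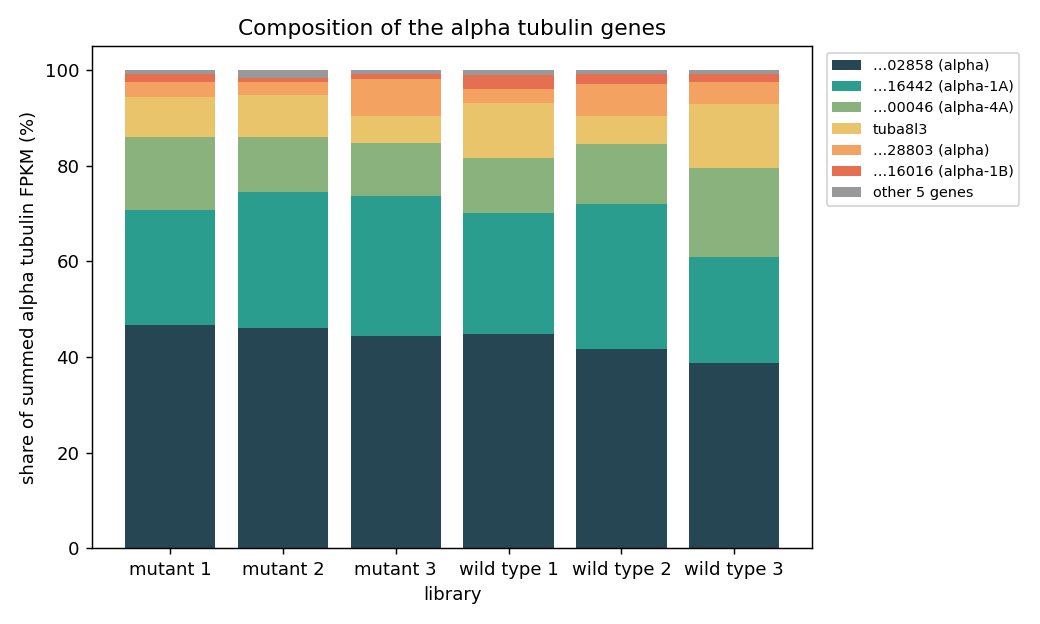
Share of the summed alpha tubulin FPKM (y axis, %) held by each gene in each library (x axis, mutant 1 to 3 and wild type 1 to 3), with 5 low genes pooled in grey. The dark segment at the base, ENSORLG00000002858, averaged 45.7% in mutant and 41.7% in wild-type libraries, and ENSORLG00000028803 (light orange) was widest in mutant 3 and wild type 2.

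Among the 8 beta tubulin rows, ENSORLG00000022139 (chromosome 22, 19910744 to 19912587) stood far above the rest. Its best match is beta-4B, a beta tubulin of cilia in mammals. It was at 1067, 1319 and 1212 FPKM in mutant 1, 2 and 3, against 1418, 1116 and 984 FPKM in wild type 1, 2 and 3. The wild-type libraries spanned the mutant ones (log2 difference 0.04, SE 0.16, adjusted p = 0.964, limma). It held 96.0 ± 0.434% of the summed beta tubulin FPKM of the 8 rows in mutant libraries and 95.8 ± 1.14% in wild-type libraries (SD, n = 3 each). This share depends on a gene length of 393 bases in the table. Of the 8 beta rows, 5 are models of 303 to 411 bases that carry the GTPase domain and lack the C-terminal tubulin domain. Among the 11 alpha rows, 9 carry both domains, but the abundant ENSORLG00000016442 (8606 bases) is described with neither. Reads of similar tubulin genes can be assigned to one another.

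A beta tubulin outside the rule held more reads. si:ch73-199g24.2, a match to beta-1 with both tubulin domains (7579 bases), named here after its values were seen, collected 132202 reads in the mutant libraries together and 112335 in the wild-type libraries, against 20871 and 21267 reads for ENSORLG00000022139. Its level was 406, 407 and 372 FPKM in mutant 1, 2 and 3, against 357, 350 and 259 FPKM in wild type 1, 2 and 3. All mutant libraries were above all wild-type libraries, as in 7.55% of all tested genes, with wild type 3 the lowest, as for ENSORLG00000002858. The log2 difference was 0.31 (SE 0.15, adjusted p = 0.764, limma) and 0.16 without wild type 3.

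The beta-3 match ENSORLG00000003475 (chromosome 20, 4239836 to 4247760) had the largest difference and the smallest p of the 35 tested genes. Beta-3 is a beta tubulin of neurons in mammals. It was at 7.14, 7.65 and 7.44 FPKM in mutant 1, 2 and 3, against 12.4, 10.2 and 15.8 FPKM in wild type 1, 2 and 3. The mutant libraries lay close together and below all 3 wild-type ones. On the log2 scale it differed by -0.70 (SE 0.17, 95% interval -1.11 to -0.28, unadjusted p = 0.00530, adjusted p = 0.381, limma), and -0.54 without wild type 3 (adjusted p = 0.358, limma). The row has 411 bases and rested on 135 reads in the mutant libraries together and 238 in the wild-type libraries. The summed level of 8 genes matched to 6 of 6 neuronal markers ran from 7.44 to 12.2 FPKM in mutant libraries and from 9.24 to 14.2 FPKM in wild-type libraries. The sum was highest in wild type 3, where 3 of the 8 genes were highest. Without stmn2b it was highest in mutant 2, at 6.00, 10.8 and 7.20 FPKM in mutant 1, 2 and 3, against 8.31, 8.27 and 8.37 FPKM in wild type 1, 2 and 3. Of the neuronal genes, snap25a, syt1b, NEFL and neflb were at 0 in at least 1 library. Their part in the difference was not tested.

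The other beta tubulins were low. The beta-5 match ENSORLG00000006948 was at 21.8, 21.7 and 21.7 FPKM in mutant 1, 2 and 3, against 12.4, 22.0 and 14.4 FPKM in wild type 1, 2 and 3. The mutant libraries were nearly equal, and wild type 2 alone of the wild-type libraries reached their level (log2 difference 0.44, SE 0.21, adjusted p = 0.764, limma). The gene named tubb5 was at 16.0 ± 1.8 FPKM in mutant and 13.4 ± 1.86 FPKM in wild-type testis, and tubb1, whose best match is beta-6, at 3.89 ± 1.72 FPKM in mutant and 5.05 ± 0.911 FPKM in wild-type testis (SD, n = 3 each). ENSORLG00000016308 passed the filter only through the wild-type group. It lies on the strand opposite si:ch73-199g24.2 with most of its length inside it, and had 10 reads in the mutant libraries together and 20 in the wild-type libraries.

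Gamma, delta and epsilon tubulin belong to the centrosome and to the centrioles, from one of which the sperm tail grows. tubg1, which nucleates microtubules, was at 83.7, 88.0 and 92.2 FPKM in mutant 1, 2 and 3, against 87.1, 89.7 and 57.5 FPKM in wild type 1, 2 and 3. Only wild type 3 lay apart, and the log2 difference of 0.20 (SE 0.19, adjusted p = 0.864, limma) was -0.01 without it. tubd1, needed for the triplet microtubules of centrioles, was at 16.4 ± 2.5 FPKM in mutant testis and 15.5 ± 2.61 FPKM in wild-type testis (SD, n = 3 each). tube1, its partner, was near the filter at 1.75 ± 0.359 FPKM in mutant and 1.75 ± 0.492 FPKM in wild-type testis. The intervals of the differences were -0.33 to 0.49 for tubd1 and -0.49 to 0.51 for tube1 on the log2 scale.

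**Figure D3:**
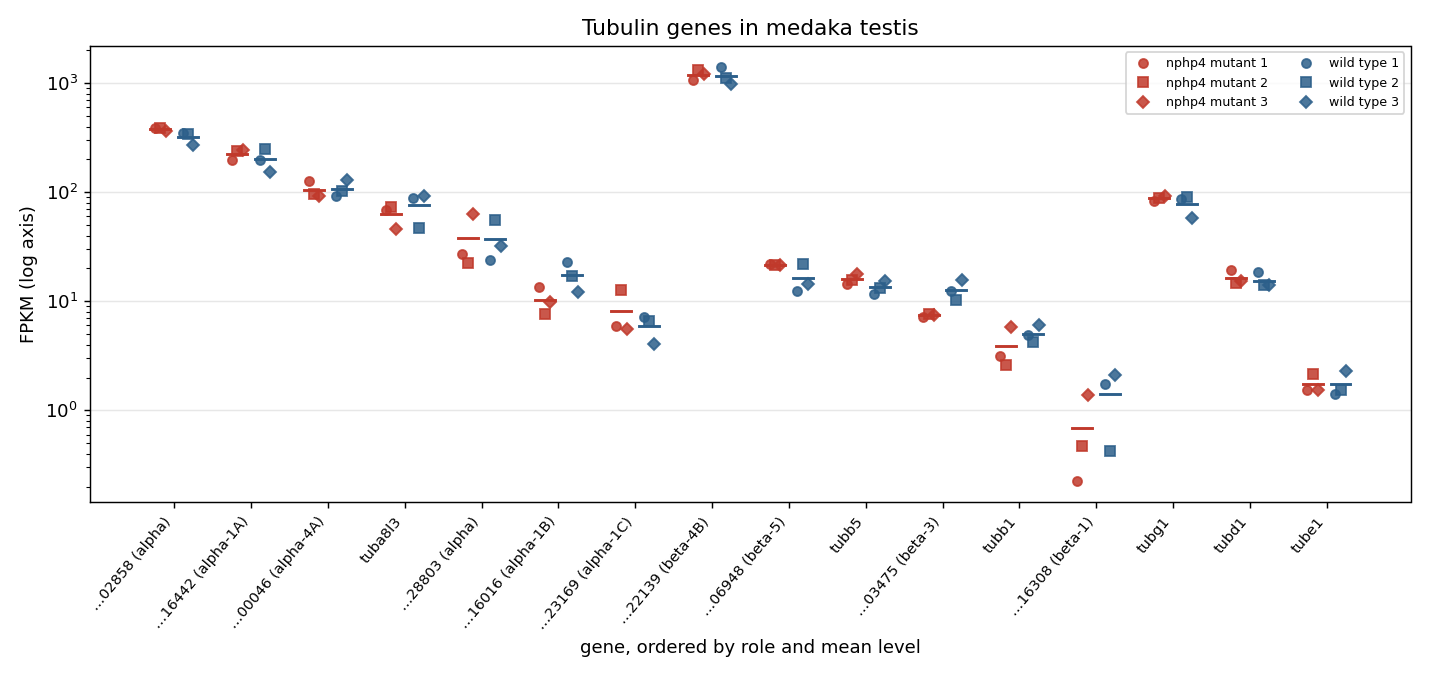
FPKM (log y axis) of the 16 tested tubulin genes (x axis, by role and mean level) in the 3 mutant (red) and 3 wild-type (blue) libraries, with a bar at each group's mean. The beta-4B match averages 1199 FPKM in mutant and 1173 FPKM in wild-type testis, tube1 averages 1.75 FPKM in both, and red and blue points are apart in ENSORLG00000002858 and ENSORLG00000003475.

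All 8 ttll genes were tested, and their log2 differences ran from -0.13 to 0.37 with a median of 0.02. ttll4, a polyglutamylase that starts glutamate chains in mammals, was the most abundant. It was at 71.2, 61.4 and 85.2 FPKM in mutant 1, 2 and 3, against 72.2, 97.3 and 51.9 FPKM in wild type 1, 2 and 3. The wild-type libraries spanned the mutant ones (log2 difference 0.01, SE 0.24, adjusted p = 0.994, limma), and the difference was -0.22 without wild type 3. ttll1, the catalytic subunit of the tubulin polyglutamylase complex that mouse sperm tails need, was at 40.9, 59.1 and 49.5 FPKM in mutant 1, 2 and 3, against 53.2, 51.2 and 38.7 FPKM in wild type 1, 2 and 3. Again the groups overlapped (log2 difference 0.06, SE 0.19, adjusted p = 0.955, limma). 

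ttll6, an enzyme that lengthens glutamate chains, varied most within the mutant group among the ttll genes above 10 FPKM. It was at 21.7, 21.5 and 46.9 FPKM in mutant 1, 2 and 3, against 31.5, 37.8 and 24.4 FPKM in wild type 1, 2 and 3. Mutant 3 stood alone at the top. ttll9, another polyglutamylase required for mouse sperm tails, was steadier, at 21.4 ± 3.07 FPKM in mutant and 18.4 ± 2.12 FPKM in wild-type testis (SD, n = 3 each). ttll11, which lengthens chains in mammals, was at 12.6 ± 1.55 FPKM in mutant and 12.6 ± 3.29 FPKM in wild-type testis, and ttll12, an atypical member of the family, at 11.4 ± 1.55 FPKM in mutant and 11.9 ± 0.717 FPKM in wild-type testis. The lowest were ttll7, a glutamylase of beta tubulin in mammals, at 5.36 ± 0.638 FPKM in mutant and 4.09 ± 1.59 FPKM in wild-type testis, and the TTLL5 match ENSORLG00000024651, at 3.23 ± 1.39 FPKM in mutant and 3.46 ± 0.609 FPKM in wild-type testis. The TTLL5 row has 558 bases and rested on 82 reads in the mutant libraries together and 89 in the wild-type libraries. It shares 218 bases with flvcr2a on the same strand. The ttll7 difference of 0.37 (SE 0.25, adjusted p = 0.829, limma) was 0.10 without wild type 3. The enzyme that puts back the terminal tyrosine, ttl, is outside the rule and was at 5.90 ± 0.549 FPKM in mutant and 5.54 ± 0.651 FPKM in wild-type testis.

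The carboxypeptidases, which shorten or remove glutamate chains, had log2 differences between -0.04 and 0.04 in their 3 tested members. agbl4 was at 24.8, 22.5 and 26.0 FPKM in mutant 1, 2 and 3, against 23.7, 24.7 and 22.5 FPKM in wild type 1, 2 and 3. All 6 libraries lay within a narrow band (log2 difference 0.04, SE 0.12, 95% interval -0.25 to 0.33, adjusted p = 0.950, limma). agtpbp1, whose loss in mice causes Purkinje cell degeneration and male sterility, was at 7.25, 8.35 and 7.09 FPKM in mutant 1, 2 and 3, against 9.64, 7.32 and 6.59 FPKM in wild type 1, 2 and 3. The groups overlapped (log2 difference -0.04, SE 0.17, adjusted p = 0.969, limma). agbl5, which removes the glutamate at the branch point in mammals, was at 5.47, 5.25 and 9.15 FPKM in mutant 1, 2 and 3, against 5.17, 9.75 and 5.63 FPKM in wild type 1, 2 and 3. As in ENSORLG00000028803, mutant 3 and wild type 2 were the high libraries. A match to the carboxypeptidase CCP2 (ENSORLG00000016495) lies outside the rule, was named after its values were seen, and had a log2 difference of 0.09 (SE 0.45, adjusted p = 0.971, limma).

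atat1, the enzyme that acetylates alpha tubulin in cilia and sperm tails, was at 11.5, 15.2 and 17.2 FPKM in mutant 1, 2 and 3, against 11.3, 15.0 and 11.1 FPKM in wild type 1, 2 and 3. The groups overlapped (log2 difference 0.21, SE 0.19, adjusted p = 0.863, limma), and the difference was 0.14 without wild type 3. The vasohibins remove the terminal tyrosine of alpha tubulin. VASH1 was at 27.4, 39.5 and 27.7 FPKM in mutant 1, 2 and 3, against 28.9, 25.7 and 28.8 FPKM in wild type 1, 2 and 3. Apart from mutant 2 its libraries were nearly level (log2 difference 0.16, SE 0.17, adjusted p = 0.875, limma). vash2 was at 16.3, 15.7 and 24.9 FPKM in mutant 1, 2 and 3, against 22.8, 23.1 and 22.5 FPKM in wild type 1, 2 and 3. Here the wild-type libraries were level, and mutant 3 alone of the mutant libraries lay above them (log2 difference -0.28, SE 0.19, adjusted p = 0.825, limma).

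The folding cofactors take alpha and beta tubulin from the chaperonin and join them into dimers. tbca, which holds beta tubulin, had the narrowest interval of all members. It was at 151, 153 and 137 FPKM in mutant 1, 2 and 3, against 146, 146 and 153 FPKM in wild type 1, 2 and 3. Its log2 difference was -0.01 (SE 0.10, 95% interval -0.25 to 0.23, adjusted p = 0.983, limma). tbcb, which holds alpha tubulin, was at 53.3, 52.0 and 34.6 FPKM in mutant 1, 2 and 3, against 71.8, 50.5 and 53.6 FPKM in wild type 1, 2 and 3. Mutant 3 was the lowest and wild type 1 the highest library (log2 difference -0.33, SE 0.22, adjusted p = 0.819, limma). tbcc, tbcd and tbce complete the dimer and had log2 differences of -0.05, 0.03 and -0.13, none past the threshold. The 5 cofactors ranged from 5.65 ± 0.471 FPKM in mutant and 6.28 ± 0.610 FPKM in wild-type testis for tbce to 147 ± 8.51 FPKM in mutant and 148 ± 3.75 FPKM in wild-type testis for tbca (SD, n = 3 each).

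**Figure D4:**
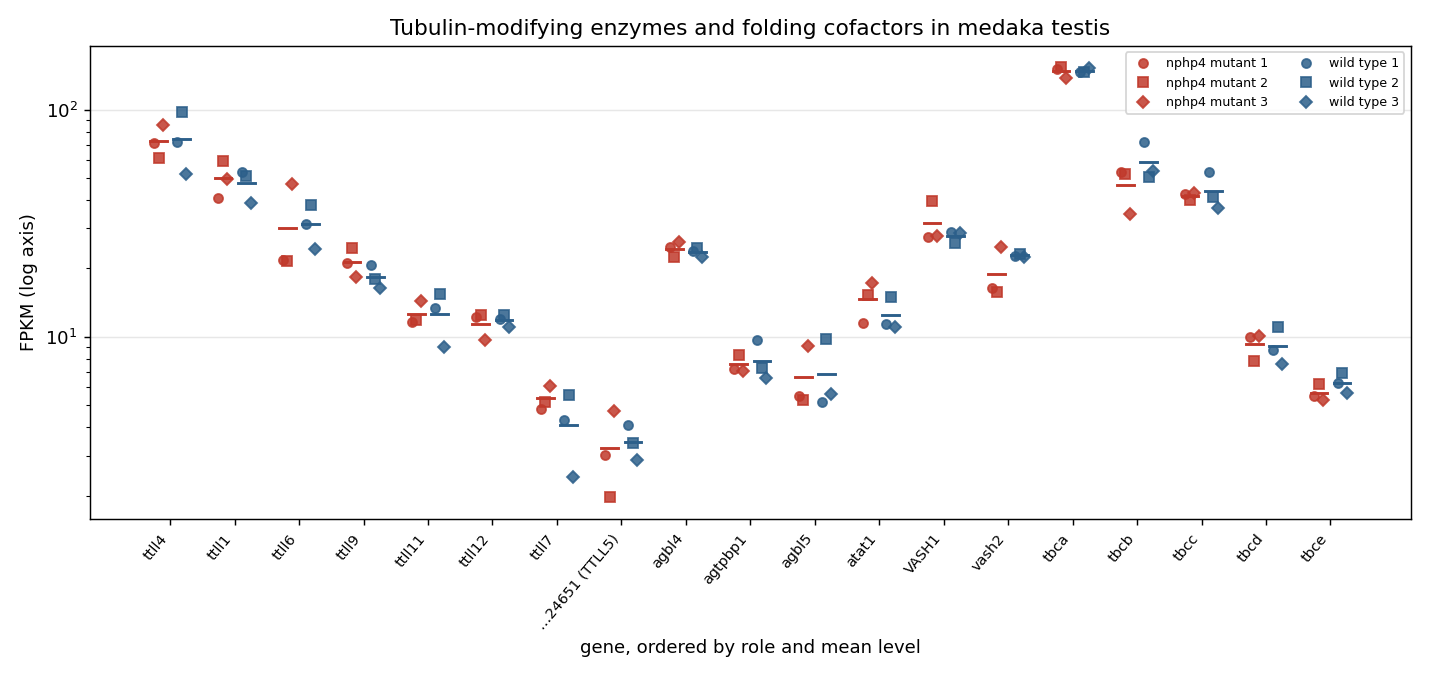
FPKM (log y axis) of the 19 tested modifying enzymes and folding cofactors (x axis, by role and mean level) in the 3 mutant (red) and 3 wild-type (blue) libraries, with a bar at each group's mean. Levels span from about 147 FPKM for tbca to about 3.23 FPKM for the TTLL5 match, and no gene has its red points all on the same side of its blue points.

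The 7 members under the filter were 4 alpha tubulins, 2 beta tubulins and a second agbl4 row, and none was tested. ENSORLG00000007053 had no read in any library, ENSORLG00000016348 had 3 reads in wild type 1 alone, and ENSORLG00000022416 had 4 reads in mutant 2 alone. ENSORLG00000015000, a match to alpha tubulin of a mite, lay between 0.728 and 0.788 FPKM in mutant libraries and between 0.434 and 0.745 FPKM in wild-type libraries. The groups did not overlap in the remaining 3, of 6 members below the filter with at least 1 read, against 11.7% of all 6994 such genes. That base mixes depths: genes with reads in fewer than 3 libraries, such as ENSORLG00000016348, cannot have groups apart. Of the remaining 3, tuba1c and tubb2 hold few reads, and the second agbl4 row holds 203 in the mutant libraries together and 118 in the wild-type libraries. All 3 were singled out after their values were seen. tuba1c had 1, 3 and 4 reads in mutant 1, 2 and 3, against 5, 9 and 32 in wild type 1, 2 and 3, and tubb2 had 5, 2 and 6 reads in the mutant libraries, against 10, 8 and 17 in the wild-type libraries. In both, wild type 3 was the highest library, as it was in all 5 matched intestinal genes and all 5 matched exocrine pancreas genes. It was also highest in 3 of 4 matched blood genes, 3 of 8 matched neuronal genes and 3 of 8 matched spermatogonial genes. Of the blood genes, hbba1 was at 19.9 FPKM in wild type 3 and next highest in wild type 1, at 0.724 FPKM. slc4a1a (7.33 FPKM in wild type 3, 7.07 FPKM in mutant 3) and slc4a1b (0.125 FPKM in wild type 3, 0.120 FPKM in mutant 1) were near ties. alas2 was highest in mutant 3. The intestinal sum was 1.95, 26.8 and 2.30 FPKM in mutant 1, 2 and 3, against 2.85, 3.00 and 196 FPKM in wild type 1, 2 and 3. Mutant 2, with the next highest intestinal sum, had 3 reads of tuba1c and the fewest reads of tubb2. The part of such tissue in these counts was not tested. tuba1c also shares 503 bases with the abundant ENSORLG00000016442 on the other strand, and the deposited values are not stated to be counted by strand. The second agbl4 row, which lies 46737 bases from agbl4 on the same strand, matches the same protein and shares 1976 bases with spata6 on that strand, was at 0.781, 0.872 and 0.937 FPKM in mutant 1, 2 and 3, against 0.455, 0.670 and 0.332 FPKM in wild type 1, 2 and 3.

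Libraries of the same genotype differed among themselves about as much in these genes as in others. The median SD of log2(FPKM + 1) within groups was 0.25 for the 35 tested members and 0.24 for all tested genes. In 12 of the 35 (34.3%) mutant 3 was the highest mutant library and wild type 2 the highest wild-type library, a pattern noted after the values were seen that held for 20.2% of all tested genes. ENSORLG00000028803, ttll6, agbl5, ttll4, ttll11, ttll7, atat1, tubg1, vash2, agbl4, tbcd and ENSORLG00000016442 made up the 12. The summed level of the 7 genes found for a list of 10 spermatid and sperm markers was also highest there, at 130, 163 and 197 FPKM in mutant 1, 2 and 3 and 152, 172 and 115 FPKM in wild type 1, 2 and 3. Of these genes, tekt2, odf2a, spag6 and cfap52 were each highest in mutant 3 and wild type 2. TEKT1, spata17 and ropn1l were highest in wild type 2 but in mutant 2 rather than mutant 3. ropn1l was at 23.6, 27.2 and 22.5 FPKM in mutant 1, 2 and 3. No marker of the list was at 0 in any library, and the part of the list in the pattern was not tested. Wild type 3 was the lowest of the 6 libraries in 14 of the 35 (40.0%), against 29.4% of all tested genes. Without it the median difference was -0.08 for the members and 0.01 for all tested genes.

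**Figure D5:**
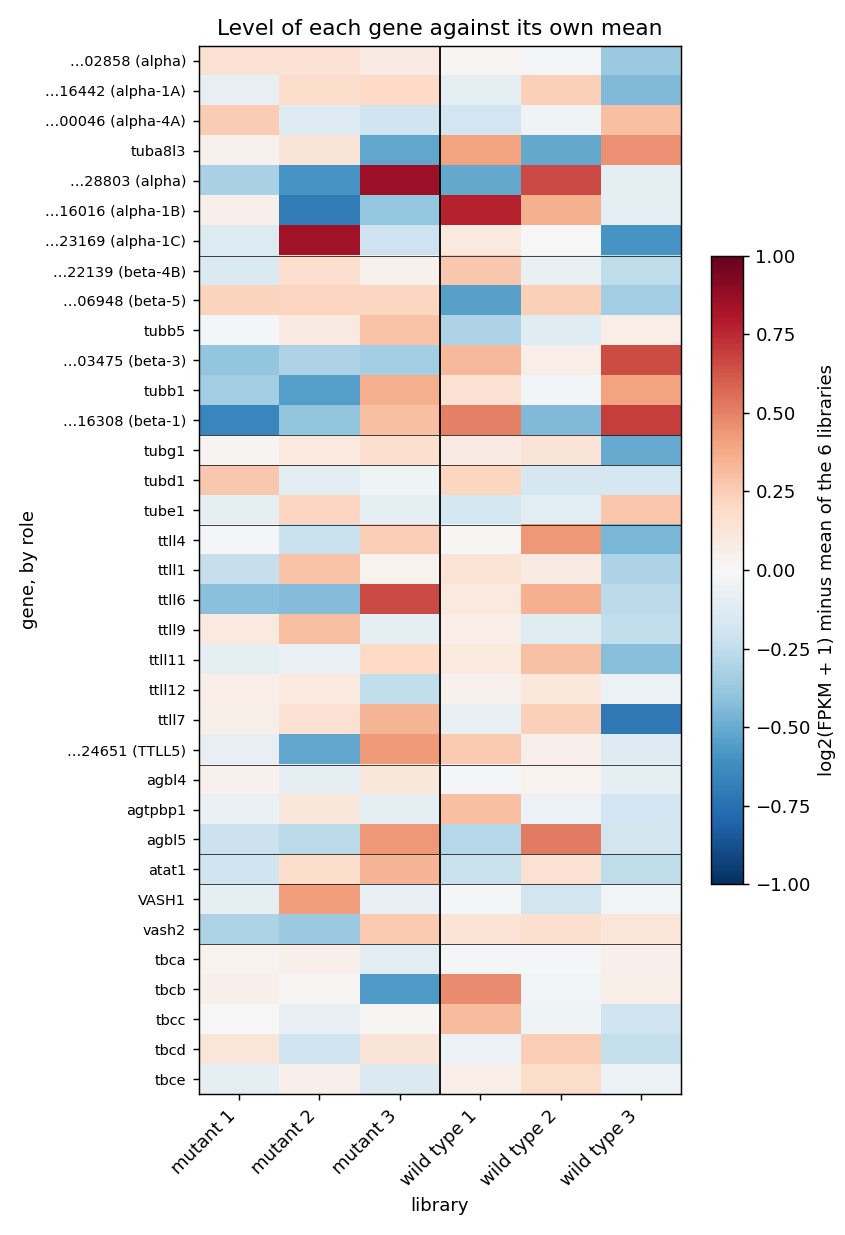
Level of each of the 35 tested genes (rows, by role) in each library (columns, mutant 1 to 3 and wild type 1 to 3) as log2(FPKM + 1) minus the gene's mean over the 6 libraries, red above and blue below it. Mutant 3 and wild type 2 are red together in ENSORLG00000028803, ttll6 and agbl5, and wild type 3 is the lowest library in 14 genes.

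Of 53 tested genes in 5 lists of other genes that act on microtubules, 0 were called in limma, where 0.0592% of all tested genes were, and 2 had an unadjusted p below 0.05, against 7.13% of all tested genes. In limma-voom, which called no gene at all, 1 of the 53 had an unadjusted p below 0.05, against 6.17% of all tested genes. In the list of gamma-tubulin ring subunits and anchors all 16 genes found were tested, with a median log2 difference of 0.03. The smallest p there was that of mzt2b, a small ring subunit, at 26.0, 25.4 and 24.9 FPKM in mutant 1, 2 and 3, against 21.3, 19.0 and 19.8 FPKM in wild type 1, 2 and 3. Its groups did not overlap (log2 difference 0.33, SE 0.12, adjusted p = 0.598, limma). HAUS1 lay apart in the other direction, lower in mutant testis (log2 difference -0.10, adjusted p = 0.889, limma). The groups thus did not overlap in 12.5% of this list, against 14.0% of all tested genes. In the list of plus end and lattice proteins, 14 of the 19 genes found were tested, with a median of 0.16 that was 0.00 without wild type 3. map9, a microtubule-associated protein, led it at 14.9, 18.4 and 16.7 FPKM in mutant 1, 2 and 3, against 11.9, 9.48 and 8.93 FPKM in wild type 1, 2 and 3. Every mutant library was above every wild-type library (log2 difference 0.68, SE 0.16, adjusted p = 0.328, limma), and the difference was 0.60 without wild type 3. TPPP lay apart in the other direction, lower in mutant testis (log2 difference -0.50, adjusted p = 0.814, limma). It passed the filter only through the wild-type group, and did not reach it without wild type 3. Its level was 0.690, 0.686 and 0.724 FPKM in the mutant libraries, against 0.920, 0.938 and 2.70 FPKM in the wild-type libraries. With TPPP included, the groups did not overlap in 14.3% of the tested genes of this list, against 14.0% of all tested genes. In the remaining lists no tested gene had its groups apart.

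The 9 tested partners of the modifying enzymes and other erasers of tubulin marks had a median difference of 0.15, which was 0.03 without wild type 3. They were led by tbcelb, a relative of tbce, at 7.18, 5.89 and 13.3 FPKM in mutant 1, 2 and 3, against 11.2, 12.7 and 12.9 FPKM in wild type 1, 2 and 3 (log2 difference -0.51, adjusted p = 0.782, limma). Mutant 3 lay with the wild-type libraries. The 9 tested severing and depolymerising factors had a median of -0.05, with the smallest p for stmn2b, a stathmin, at 1.44, 1.45 and 1.05 FPKM in mutant 1, 2 and 3 and 1.42, 0.973 and 5.81 FPKM in wild type 1, 2 and 3. Its difference of -0.47 (adjusted p = 0.865, limma) was 0.08 without wild type 3, the 1 high library. The 5 tested prefoldin subunits, which deliver new tubulin to the chaperonin, had a median of -0.03, led by pfdn5 (log2 difference -0.14, adjusted p = 0.859, limma).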

How the data were processed

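Testis RNA was sequenced in 6 libraries. The deposited table holds FPKM values that the authors made, 1 for every gene in each library, and the authors' gene lengths in bases (neither a count nor a level), their divisor. Tools listed in the submitters' processing notes are DESeq2 1.20.0, featureCounts 1.5.0-p3, HISAT2 2.0.5, fastp and CASAVA 1.8, with no step given for any. Genome build and strand setting are not given in the sources used here, and coordinates are those of the table. FPKM times length gave whole multiples of 1 read (tolerance 0.01 read) for 100% of values above 0 in every library. The totals inside the FPKM values follow the libraries' median-ratio size factors.

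The 15203 genes that averaged 1 FPKM or more in the mutant or the wild-type group were fitted with limma 3.58.1 in R 4.3.3 on log2(FPKM + 1), with trend and robust moderation, and called at a Benjamini-Hochberg adjusted p below 0.05 over all of them. SE is the moderated standard error. The fit was tested on simulated counts with the same dispersion setting for every gene and no library set apart. That test does not measure the power of the fit on these libraries. Members, lists and tests were chosen with earlier results of these data known. Named members were those called, with an unadjusted p below 0.05, among the 2 most abundant of a role, or without overlap and a log2 difference of at least 0.5; in comparison lists, the smallest p. Every other gene was chosen after its values were seen. Protein names are best Swiss-Prot matches in the table; of 15 members named by identifier, 7 have an NCBI number found in RefSeq (ASM223467v1), none with a symbol. List genes were matched by symbol, a or b suffix allowed. P-values measure the spread between pools of fish.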

Additional observations from a re-analysis of the deposited data

How the results depend on the processing

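Under 11 alternatives (a pseudocount of 0.1, no filter, scaling by library totals, limma-voom on recovered reads, the replicate block, and leaving out each of the 6 libraries) 0 members and 0 genes of the comparison lists were called, and the smallest adjusted p of any member was 0.358 in limma. The difference of nphp4 kept its sign and was called in none. Of the 35 tested members, 15 kept the sign of their difference in all 11, and 20 changed it in at least 1. The fit with no filter and the replicate block could not change a sign, since they leave each of these differences as it was. The median difference of the members ran from -0.0782 without wild type 3 to 0.0323 without mutant 1 when libraries were left out. It was 0.0671 in limma-voom and 0.0480 with library totals, where the medians of all genes fitted were 0.0660 and 0.0579. The count of members whose groups do not overlap was 5 with no filter (12.2%, against 13.3% of all genes in that fit), since 6 more members entered. It was 4 to 9 when a library was left out (11.4% to 25.7%, against 21.7% to 27.5% of all genes), which leaves fewer samples to overlap, and it was below the share of all genes in each of these fits. Same-numbered libraries did not deviate together (correlations 0.31, -0.56 and -0.42 for numbers 1, 2 and 3), and only number 1 correlated best with its own number. With the replicate block the median of the members stayed at 0.00881, which was fixed in advance because every number occurs in both groups. In that fit 0 members were called, and 6 genes in all were called against 9. That count of all genes called also moved to 7 with the other pseudocount or no filter, 14 with library totals, 0 in limma-voom, 3, 2 and 2 without mutant 1, 2 and 3, and 4, 8 and 18 without wild type 1, 2 and 3, so the share of 0.0592% is itself unstable. Rows with few reads, such as tuba1c, tubb2 and ENSORLG00000016308, limit what the depth can show.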
